A study of Mus musculus with 6 samples.

Results

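Naive pluripotency regulators are transcription and chromatin factors that hold or mark the state of the early epiblast, before lineage choice, in mouse embryonic stem cells. Here they are 10 genes: Klf2, Klf4, Klf5, Esrrb, Tfcp2l1, Prdm14, Zfp42, Dppa2, Dppa4 and Sall4. Promoter contacts were read by promoter-capture Micro-C, in which chromatin is crosslinked, cut with micrococcal nuclease and ligated, and promoter fragments are then captured. A captured promoter fragment is called a bait, and a loop is a bait with another end that the authors listed as interacting. A bait was taken where it overlapped the RefSeq body of a member extended by 2 kb, which gave 8 of the 19083 baits, at 7 of the 10 genes, and only loops within a chromosome were counted. All 8 baits overlapped the gene body itself, and the nearest bait outside the window lay 4.91 kb from Sall4, at Atp9a. No fragment given as the bait of a loop or entry belonged to Klf5, Tfcp2l1 or Prdm14. One end of Prdm14 lies on a fragment of 1860 bp (chr1:13126424-13128283), the length of 72.3% of baits, which was met only as the other end of a loop between chromosomes, and whether it was captured is not known.

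All libraries came from E14TG2a, a male mouse embryonic stem cell line of wild-type genotype, grown on gelatin in medium with serum and leukemia inhibitory factor (LIF). Transfected esiRNA, a mix of short RNAs made by cutting a long double strand, acted for 48 h before harvest. It targeted EGFP, which these cells lack, in Control, Smarca4 in Brg1KD, or Ino80 in Ino80KD. Smarca4 encodes Brg1, the ATPase of the esBAF remodeller, and Ino80 the ATPase of the INO80 remodeller. Each group had 2 libraries. Batch 1 holds the first replicate of each group, batch 2 the other Control library, and batch 3 those of Brg1KD and Ino80KD. The labels do not say that replicates were separate cultures, so p-values measure only the spread between these libraries, which may be technical, and without RNA neither the depletion nor the naive state of the cells was checked.

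In naive cells these factors act as a network. Klf2, Klf4 and Klf5 are Krüppel-like zinc finger activators that can stand in for one another. Esrrb is an orphan nuclear receptor and Tfcp2l1 a factor acting below LIF and Stat3, while Prdm14 holds down FGF signalling and DNA methylation. Zfp42, also called Rex1, is the standard reporter gene of the naive state. Dppa2 and Dppa4 are SAP-domain proteins that work as a pair at developmental promoters, and Sall4 is a zinc finger factor of the wider pluripotency network. Brg1 is known to occupy many pluripotency gene promoters and enhancers in these cells.

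The baits of Klf2, Klf4 and Zfp42 each held the whole RefSeq promoter window of the gene, 250 bases before to 50 after its start (GRCm38.p6). They are shown because the loops described below start from these fragments. Capitals mark matches to the GC box GGGCGG on either strand, and in Zfp42 also an overlapping match to GGGNGTGG, the letters of a KLF-type site.
Klf2 (chr8:72318812-72319111, plus strand): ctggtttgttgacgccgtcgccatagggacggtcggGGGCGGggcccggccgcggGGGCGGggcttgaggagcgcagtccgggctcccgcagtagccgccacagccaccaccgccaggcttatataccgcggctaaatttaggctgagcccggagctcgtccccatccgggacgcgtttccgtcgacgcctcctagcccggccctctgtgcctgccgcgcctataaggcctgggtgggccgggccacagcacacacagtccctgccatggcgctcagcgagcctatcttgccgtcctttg
Klf4 (chr4:55532426-55532725, minus strand): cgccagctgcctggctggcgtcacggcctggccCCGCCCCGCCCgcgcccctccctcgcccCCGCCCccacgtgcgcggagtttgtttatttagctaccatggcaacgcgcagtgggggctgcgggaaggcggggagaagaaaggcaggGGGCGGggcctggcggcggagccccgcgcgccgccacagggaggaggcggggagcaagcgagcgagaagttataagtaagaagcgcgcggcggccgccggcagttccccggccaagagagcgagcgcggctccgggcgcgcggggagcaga
Zfp42 (chr8:43306960-43307259, minus strand): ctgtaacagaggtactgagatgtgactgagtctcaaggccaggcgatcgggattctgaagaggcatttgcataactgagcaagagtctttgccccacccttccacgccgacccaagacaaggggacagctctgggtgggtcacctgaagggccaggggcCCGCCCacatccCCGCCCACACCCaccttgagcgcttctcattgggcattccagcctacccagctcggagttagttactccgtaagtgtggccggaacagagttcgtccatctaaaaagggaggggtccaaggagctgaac
The GC box letters occurred 2 times in the Klf2 window, 4 times in that of Klf4 and 2 times in that of Zfp42. Over all 32817 windows of that length, 35.6% held them. GGGNGTGG was found 1 time in Zfp42 and in 17.6% of all windows. The 3 windows held no match to AAGGTCA (4.72% of windows) or its longer form TCAAGGTCA (0.424%), the letters of an ESRRB-type site, to TATAAA (13.6%), or to a CTCF-type motif (2.43%). Windows of Esrrb and Tfcp2l1 were outside any bait of the lists. The Esrrb bait (chr12:86468997-86470856) lay inside the gene, with neither of its ends on it.

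Without 1 bait that the authors' group lists lack (chr2:98661117-98662976), the lists held 12254 to 15322 loops within a chromosome per library. Each loop had the authors' interaction score, from 5 up. Sequencing depth is unknown. Scores under the minimum are not listed, so an unlisted contact is not shown to be absent. The library of Brg1KD replicate 1 stood apart: again without that bait, 23.7% of its loops joined different chromosomes, against 14.6% to 17.0% in the other 5 libraries. Loop counts of the naive regulators and of the gene lists are given with and without it. The fold changes in the authors' deposited table for Brg1KD are taken to rest on both libraries of the group and could not be refitted without it.

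Over the 6 libraries the members had 20 listings of 13 different loops within a chromosome. Each Control library listed 4 member loops and each Ino80KD library 4, while Brg1KD replicate 1 listed 0 and Brg1KD replicate 2 listed 4, all of them at Sall4. Per 1000 loops within a chromosome this was 0.269 ± 0.0119 (SD, n = 2) in Control, 0.154 ± 0.218 in Brg1KD and 0.278 ± 0.00768 in Ino80KD. The Brg1KD values lay on both sides of the Control values, at 0 and 0.309, and neither depletion differed from Control beyond the spread of libraries (exact two-sided permutation p = 1.00 for Brg1KD and 0.667 for Ino80KD, where 2 against 2 libraries cannot go below 0.33). The ratio of Brg1KD to Control was 0.573 and became 1.15 without Brg1KD replicate 1 and 0 without Brg1KD replicate 2. Ino80KD stood at 1.80 times Brg1KD (exact permutation p = 1.00), at 0.901 without Brg1KD replicate 1, at 0.918 within batch 3, and at 1.00 with gene bodies extended by 10 kb. The Brg1KD library of batch 1 listed no member loop.

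**Figure D1:**
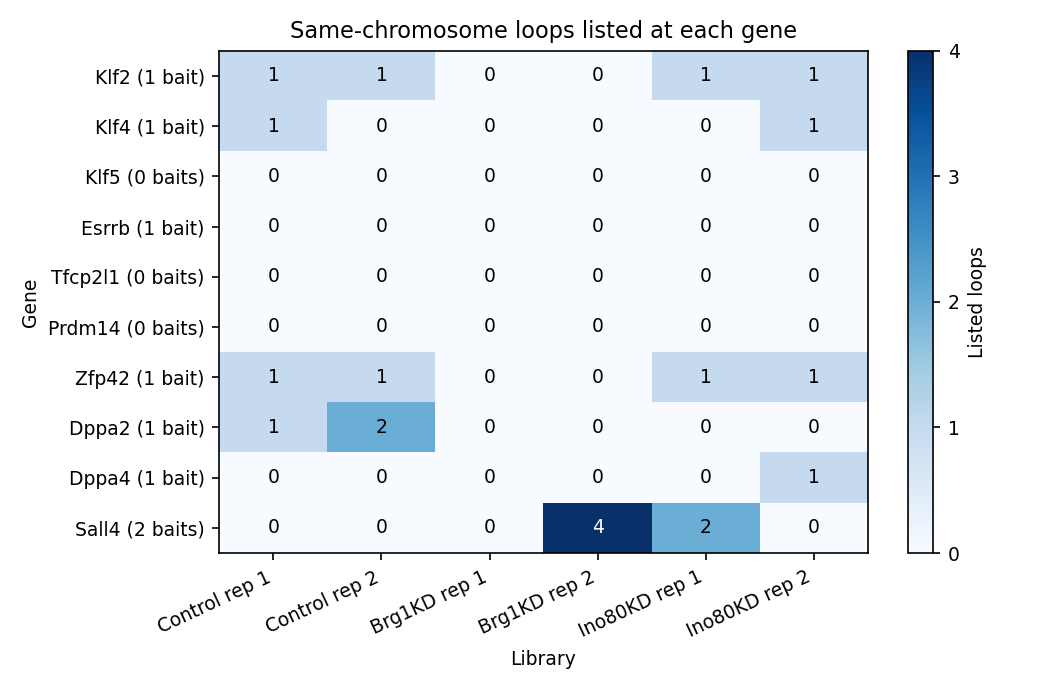
Number of same-chromosome loops listed at the baits of each gene (rows) in each library (columns, 2 per group), with the number of baits behind each gene name. Klf2 and Zfp42 have 1 loop in every Control and Ino80KD library and 0 in both Brg1KD libraries, while Sall4 has loops in Brg1KD replicate 2 and Ino80KD replicate 1.

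Leaving out Sall4, the members had 4 and 4 loops in Control, 0 and 0 in Brg1KD, and 2 and 4 in Ino80KD. Sall4 was left out as the member with the most listings in these data. It held every Brg1KD listing, so the 0 and 0 follow from leaving it out. Among single genes, Klf2, Zfp42 and Dppa2 had fewer loops in both Brg1KD libraries than in both Control libraries, and 0 genes had more. Over all 17305 baits with a loop, 7.89% had fewer in both Brg1KD libraries and 4.08% had more. Of the 7 member baits with a loop these 3 genes have 1 each. Set against Brg1KD replicate 2 alone, the same 3 genes had fewer loops than in both Control libraries, as 13.6% of baits did, and Sall4 had more, as 18% did. Dppa2 also had fewer in both Ino80KD libraries than in both Control libraries, which held for 6.23% of baits, and 0 genes had more, which held for 5.4%. Between the depletions, Klf2 and Zfp42 had more loops in both Ino80KD libraries than in both Brg1KD libraries, as 7.84% of baits did. With 0 to 2 loops per gene in most libraries, each of these differences rests on 1 or 2 listings per library.

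The KLF genes had loops at 2 of the 3. The promoter of Klf2 (gene chr8:72319062-72321654, bait chr8:72317913-72319772) was joined to the fragment just beyond it, chr8:72320001-72340000, with 11.2 kb between their centres. That fragment holds the far end of Klf2 and lies within 2 kb of an end of its neighbour Eps15l1, an adaptor of endocytosis. The loop scored 5.71 and 7.39 in Control and 6.91 and 9.02 in Ino80KD, and neither Brg1KD list held it. It was the only member loop listed in 4 libraries, and none was in more. In all, 2525 loops were in both Control and both Ino80KD lists, and 11.7% of these were in neither Brg1KD list, 27% in 1 and 61.2% in both. Without Brg1KD replicate 1, 24.6% of the 2525 were not in the remaining Brg1KD list. By identical ends, the Klf2 loop was thus 1 of 13 member loops in both Control and neither Brg1KD list, beside 2.7% of all 49634 loops. It was also 1 of 13 in both Ino80KD and neither Brg1KD list, beside 2.82%. Counting Brg1KD replicate 2 alone, these shares were 4.21% and 4.37%. With both ends matched within 5 kb, a Dppa2 loop to chr16:48600001-48640000 was also in both Control and neither Brg1KD list. The shares over all loops are by identical ends. Within their own lists the 4 scores of the Klf2 loop exceeded 39.4% to 91.1% of the others. It was thus weak in Control replicate 1 and among the stronger ones in Ino80KD replicate 2.

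In the authors' deposited table for Brg1KD, the contact of Klf2 with chr8:72320001-72420734, a region that runs into Eps15l1, had a log2 fold change of -0.52 ± 0.22 (SE) with an unadjusted p of 0.0171 and an adjusted p of 1.00. Values below 0 are taken as lower after depletion. No header says so, but loops of other genes listed in both Control and neither Brg1KD library were above 0 in 17.0% of cases in the authors' deposited table, and loops in both Brg1KD and neither Control library in 83.2%. For Ino80KD the authors' deposited table gave the same contact 0.23 ± 0.21 (p = 0.270), with those shares at 15.4% and 86.4%. Listings and fold changes come from the same libraries and are not separate support. Of 10 member entries in the authors' deposited table for Brg1KD, that of Klf2 was the 1 with an unadjusted p under 0.05. Among all entries of the authors' deposited table, 1.2% had one (0.827% lower, 0.373% higher), and 0 of 33243 entries passed the adjustment. A single entry of 10 is thus a call at an unadjusted threshold and no more.

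Klf4 (chr4:55527137-55532475), one of the reprogramming factors, made a far longer contact. Its bait (chr4:55531031-55533390) was joined to chr4:56700001-56720000, 1178 kb away, in Control replicate 1 with a score of 8.49 and in Ino80KD replicate 2 with 7.92. The nearest protein-coding gene to that end, 20.0 kb from it, was Actl7b, a gene of the actin-like family. In Control replicate 2, whose Klf4 bait had no loop, the bait of Actl7b (chr4:56738950-56742563) was listed with chr4:55520001-55531030, the fragment that adjoins the Klf4 bait and holds most of the gene, at a score of 6.08. The listings from either side thus join nearby ends, 2 from Klf4 and 1 from Actl7b. Neither Brg1KD library listed either. The fold changes in the authors' deposited table were small beside their errors, at -0.19 ± 0.45 (p = 0.674) in Brg1KD and -0.059 ± 0.43 (p = 0.892) in Ino80KD. The third KLF gene, Klf5, had no bait, and the nearest one lay 2416 kb from it, at Lmo7.

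Zfp42 (chr8:43295067-43307009, bait chr8:43306270-43307629) had 1 loop within the chromosome in each Control and each Ino80KD library and none in Brg1KD, but not to the same place. Both replicate 1 libraries listed chr8:43320001-43340000, 23.1 kb away and free of annotated genes, at scores of 5.12 in Control and 5.32 in Ino80KD. Both replicate 2 libraries listed ends inside Fat1, a large cadherin gene, near 1.7 Mb away in adjoining fragments: chr8:44960001-44980000 in Control at 5.37 and chr8:44980001-45000000 in Ino80KD at 8.07. So the equal counts of Zfp42 hide a pair of contacts, and each was listed in 1 library per group. In the authors' deposited table the near region, chr8:43320001-43440000, had -0.62 ± 0.40 (p = 0.116) in Brg1KD, the lowest value of the 10 entries, and 0.17 ± 0.33 (p = 0.604) in Ino80KD. The Fat1 region had an entry in the authors' deposited table for Ino80KD alone, at 0.59 ± 0.81, with a mean signal of 9.10, lower than all but 1.75% of entries.

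**Figure D2:**
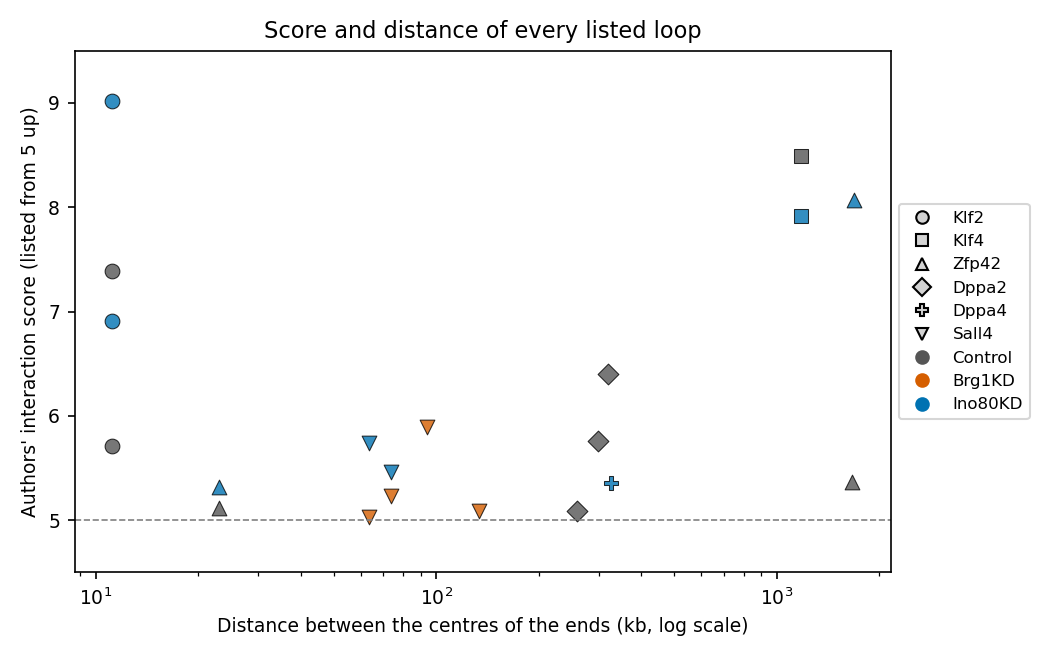
Authors' interaction score (vertical, dashed line at the minimum of 5) against the distance between the centres of the ends (horizontal, log scale) for the 20 listed loops, with the symbol giving the gene and the colour the group. Of the 20 scores 15 are under 7, and the highest belong to Klf2, Klf4 and Zfp42 loops of Control and Ino80KD. Scores of different libraries have no shared scale, and all Brg1KD listings are of Sall4, so the groups cannot be compared by score here.

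Dppa2 and Dppa4 are neighbours, and their baits (chr16:48309357-48311216 and chr16:48282615-48284474) reached the same place, the body of Morc1, which encodes a germline silencing factor. Dppa2 was joined to chr16:48620001-48640000 in Control replicate 1 (score 6.40), and to the adjoining chr16:48600001-48620000 (5.76) and to chr16:48560001-48580000 (5.09) in Control replicate 2. No depleted library listed a Dppa2 loop within the chromosome. Dppa4 had no such loop in Control or Brg1KD and 1 in Ino80KD replicate 2, to chr16:48600001-48620000, at 5.36. No loop joined Dppa2 to Dppa4.

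The 3 Dppa2 regions in the authors' deposited table overlap one another over Morc1 and share contacts. They had -0.44 ± 0.33, -0.38 ± 0.35 and -0.30 ± 0.36 in the authors' deposited table for Brg1KD, and -0.41 ± 0.32, -0.32 ± 0.33 and -0.42 ± 0.35 in that for Ino80KD. These depletions share their Control libraries, so the likeness of their values adds nothing. Dppa4 had an entry in the authors' deposited table for Ino80KD alone, over chr16:48500001-48720000, at 0.47 ± 0.38 (p = 0.222). Dppa2 over that region was at -0.32 there, so the neighbours had opposite signs, neither value passed the test, and the difference between them was not tested.

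Sall4 (chr2:168748332-168767201) went the other way. It has a bait inside the gene (chr2:168755204-168757063) and one at its higher end (chr2:168764507-168768149). Control listed 0 and 0 loops, Brg1KD 0 and 4, and Ino80KD 2 and 0, so within each depletion 1 library had them and 1 did not. Both baits reached chr2:168820001-168840000, a stretch without annotated genes, in Brg1KD replicate 2 (scores 5.23 and 5.03) and in Ino80KD replicate 1 (5.46 and 5.74). Brg1KD replicate 2 also listed chr2:168840001-168860000 (5.89) and chr2:168880001-168900000 (5.09) with the inner bait, and that last end holds part of Zfp64, a zinc finger gene. All 6 scores lay under 6, above 2.01% to 49.1% of the scores of their lists. The authors' deposited table for Brg1KD gave 0.20 ± 0.19, 0.22 ± 0.19 and 0.21 ± 0.20 for overlapping regions of the inner bait and 0.0099 ± 0.19 for the outer one. For Ino80KD the authors' deposited table gave 0.26 ± 0.18 and 0.20 ± 0.19, and the smallest p of the 6 was 0.152. In mean signal these regions stood above 91.5% to 96.8% of the entries of their table.

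**Figure D3:**
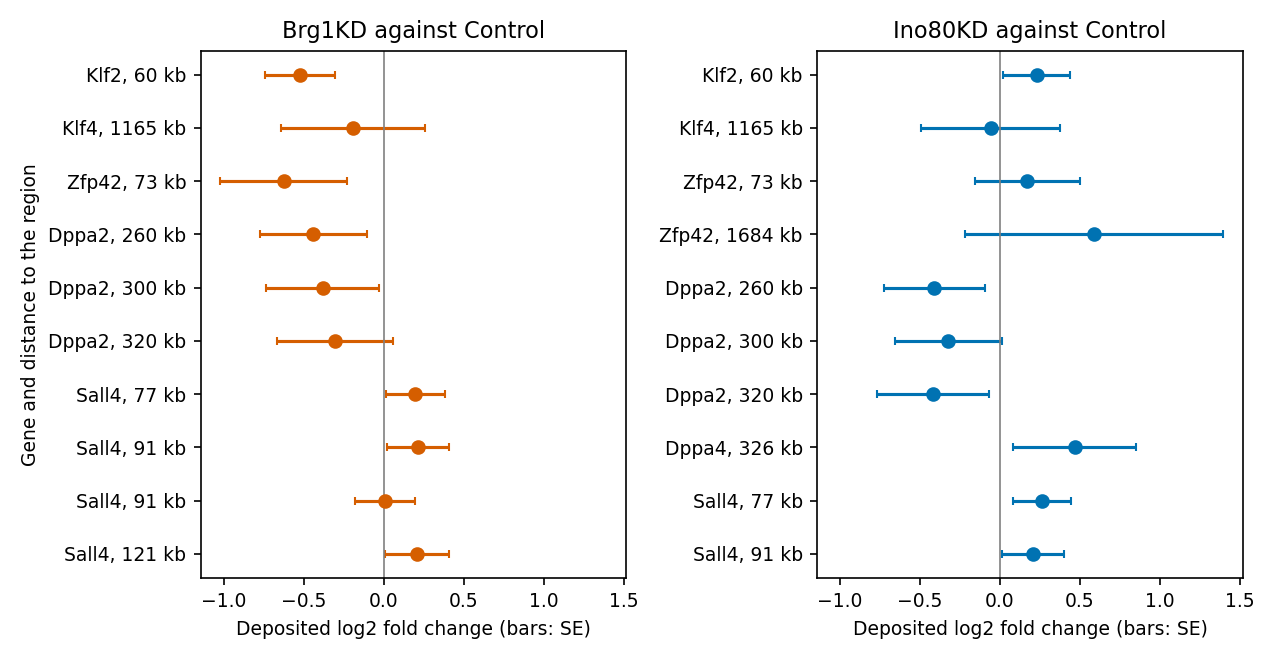
Log2 fold change against Control (points) with its SE (bars) in the authors' deposited tables, for each entry at a member bait, named by gene and distance to the region. For Brg1KD the entries of Klf2, Klf4, Zfp42 and Dppa2 lie below 0 and those of Sall4 above, and for Ino80KD only Dppa2 and Klf4 lie below 0.

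As a set, the 10 member entries in the authors' deposited table for Brg1KD had a median log2 fold change of -0.25, with 6 below 0, beside -0.0084 and 51.3% over all entries. They stand for 5 genes, of which Klf2, Klf4, Zfp42 and Dppa2 were below 0. The median of the members in the authors' deposited table was -0.41 without Sall4, and turned to 0.10 over the entries at or above the median signal of the table, most of which are those of Sall4. In the authors' deposited table for Ino80KD the 10 entries of 6 genes had a median of 0.19, with 4 below 0, beside 0.0023 and 49.6% over all entries. That median in the authors' deposited table was 0.056 without Sall4. In the authors' deposited table none of the 10 reached an unadjusted p under 0.05, which 1.29% of all entries did, and 0 of 34774 passed the adjustment. Overlapping regions of a bait share contacts, so these medians have no error of their own.

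Other genes of the pluripotency network were counted in the same way, from a list of 30 genes, 25 of them with a bait. They had 17 and 12 loops in Control, 11 and 12 in Brg1KD, and 32 and 18 in Ino80KD, or 0.972 ± 0.195 (SD, n = 2), 0.912 ± 0.0199 and 1.73 ± 0.640 per 1000. Both Ino80KD libraries lay above both Control libraries (exact permutation p = 0.33, the smallest possible), and the Brg1KD values lay between the Control values. The ratio of Brg1KD to Control was 0.938, and 0.953 without Brg1KD replicate 1. Pou5f1, the core factor also called Oct4, led with 5 and 2 loops in Control, 3 and 3 in Brg1KD, and 6 and 5 in Ino80KD. Nanog, its partner, had 1 and 2 in Control, 3 and 1 in Brg1KD, and 9 and 3 in Ino80KD. Stat3, the LIF relay, had 0 and 1 in Control, 2 and 4 in Brg1KD, and 3 and 0 in Ino80KD. It had 10 loops in all, and 3 genes had 5. Of these, Sox2, the partner of Oct4, had 1 and 1 in Control, 0 and 0 in Brg1KD, and 2 and 1 in Ino80KD. Mycn, a MYC family gene, had 1 and 2 in Control, 0 and 0 in Brg1KD, and 2 and 0 in Ino80KD. Etv5, a factor of FGF signalling, had 2 and 1 in Control, 1 and 0 in Brg1KD, and 0 and 1 in Ino80KD. Of 32 entries of that list in the authors' deposited table for Brg1KD, 0 had an unadjusted p under 0.05. Of 49 in the authors' deposited table for Ino80KD, 2 were higher at that threshold, both of them overlapping regions of Stat3, and 0 were lower, where 0.912% and 0.382% of all entries were.

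Primed epiblast genes, which mark the later state that naive cells pass into, had 16 and 11 loops in Control, 8 and 7 in Brg1KD, and 18 and 17 in Ino80KD at 16 genes with a bait. Per 1000 this was 0.904 ± 0.198 (SD, n = 2), 0.596 ± 0.0798 and 1.22 ± 0.0156, and in each comparison of 2 groups the libraries did not overlap (exact permutation p = 0.33 each). The ratio of Brg1KD to Control was 0.660, and 0.597 without Brg1KD replicate 1. Cldn6, a tight junction gene, had 16 loops, Fgf8 had 11, Sall2 had 10 and Wnt3 had 9. In the authors' deposited table for Brg1KD the median was -0.39 over 27 entries, with 3 lower at an unadjusted p under 0.05 and 0 higher, where 0.827% and 0.373% of all entries were. These 3 are regions of Zic5 that overlap one another and share contacts. In that for Ino80KD the authors' deposited table gave 0.041 over 41 entries, with 1 higher, of Cldn6, and 0 lower, where 0.912% and 0.382% of all entries were. Whether these lists differ from the naive regulators in their response was not tested. Over the 6 libraries the naive regulators had 2.50 loops per bait, beside 3.78 for the other pluripotency genes and 3.85 for the primed genes. Of the 102 loops of the other pluripotency genes, Pou5f1 had 24 and Nanog 19. The median was 2.5 loops per bait for the naive regulators and 2 over all 19083 baits. All baits together had 87052, a loop between baits counting at each, with up to 156 at a single bait. By the mean per bait, all baits thus stood above the naive regulators and above both other lists.

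Taken as lists, genes of other lineages had more loops per bait than the naive regulators, a difference that was not tested. Single genes held a large part of these loops. Sox17 of primitive endoderm had 20 at 2 baits, and Tfap2c of trophoblast had 10 at 1 bait. The 6 primitive endoderm genes had 28 loops at 9 baits, or 3.11 per bait, with 2 to 6 loops per library. Per 1000 loops they stood at 0.964 times Control for Brg1KD and 0.741 times for Ino80KD (exact permutation p = 0.667 each). Without Brg1KD replicate 1 their ratio of Brg1KD to Control was 0.830. The 4 trophoblast genes had 20 at 4 baits, or 5 per bait. They had 5 and 5 loops in Control, 1 and 3 in Brg1KD, and 3 and 3 in Ino80KD. Both depletions lay below both Control libraries, at 0.465 times Control for Brg1KD and 0.619 times for Ino80KD (exact permutation p = 0.33 each, the smallest possible). Without Brg1KD replicate 1 the ratio of Brg1KD to Control was 0.687. The Zscan4 genes of 2-cell-like cells had no bait.

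**Figure D4:**
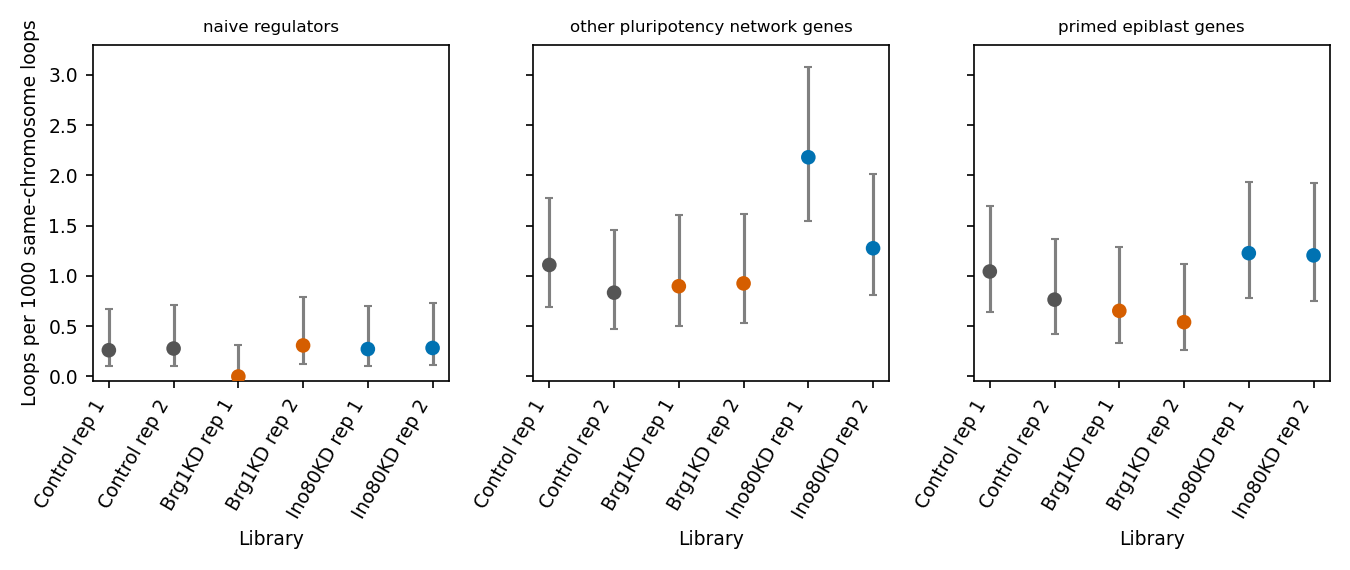
Loops per 1000 same-chromosome loops (points, coloured by group) with 95% Wilson intervals (bars, counting error only) in each library, for the naive regulators and for the other pluripotency and primed epiblast genes. For the naive regulators 5 libraries lie between 0.261 and 0.309 and Brg1KD replicate 1 lies at 0, with intervals that overlap throughout.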

How the data were processed

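Members and gene lists were chosen with earlier results of these data known. The authors deposited a loop list per library with an interaction score, group lists of positions, and a comparison table for each depletion. Per the file headers, the deposited tables hold a mean normalized signal, a log2 fold change with its SE, a statistic (a score, the ratio of fold change to SE) and p-values. The submitters' processing notes name mm10 and bedtools, while the caller's name was not given in the sources used. Each list was called on its own and its scores have no shared scale, so loops were counted per 1000 intrachromosomal loops, leaving out 1 bait (chr2:98661117-98662976) that the group lists lack. The files used here give no contact counts, so the deposited fold changes were described and not refitted, as the design laid down.

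Baits came from the lists and tables, and genes from RefSeq GRCm38.p6, whose table gives no exons. RefSeq promoter windows were held for 5 of 10 members, and a script searched both strands. The overlap of baits with genes, the gap between ends, a ratio of set counts, the permutation p and the Wilson interval were checked on made-up values. Counting loops in lists and matching them between libraries had no such check. Loops were matched by identical ends, or with both ends within 5 kb as an alternative. Libraries were compared by exact two-sided permutation, and 95% Wilson intervals cover counting error only. All members were named, with each one's most often listed end, ends listed in both libraries of 1 group and neither of another, and its entry of smallest p in each table. From the other pluripotency and primed lists the 4 genes with most loops were named, with ties for the fourth place kept. Zic5, Sox17 and Tfap2c were named after their values were seen. Loops of other baits onto members, and the gene lists without Brg1KD replicate 1, were also looked up after the data were seen. Same-numbered libraries of the depletions share a batch in the labels, and with Control only replicate 1 does. Deviations of same-numbered libraries had correlations over baits of 0.0497 (Control and Brg1KD), 0.00098 (Control and Ino80KD) and 0.0026 (Brg1KD and Ino80KD). Alternatives were the score minimum, bait window, denominator, left-out genes and libraries, batch and replicate block. Python 3.11.15, pandas 2.3.3, scipy 1.17.1 and matplotlib 3.10.9 were used.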

Additional observations from a re-analysis of the deposited data

Results flagged for a closer look

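Loops from baits of other genes that ended on a member were outside the comparisons, and Ino80KD replicate 1 had more of them than either Control library, 2 against 0 and 1. In Ino80KD replicate 1, the bait of Mast3 (chr8:70791694-70793553), a kinase gene, was listed with the Klf2 fragment chr8:72320001-72340000 at a score of 5.57. In the same library the bait of the noncoding gene Gm26698 (chr12:86891828-86893687) was listed with chr12:86500001-86520000, inside Esrrb, at 6.46. The Control listing was that of Actl7b with the fragment beside the Klf4 bait. Brg1KD libraries and Ino80KD replicate 2 listed 0. The difference was not tested.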

How the results depend on the processing

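Leaving out 1 library at a time, the ratio of member loops per 1000 ranged from 0 to 1.15 for Brg1KD over Control, from 1.00 to 1.06 for Ino80KD over Control and from 0.901 to 1.84 for Ino80KD over Brg1KD. The turns above and below 1 came with Brg1KD replicate 1 left out. Ino80KD over Control, main value 1.03, was 1 with raw counts, 0.757 with gene bodies extended by 10 kb, 0.779 without Sall4 and 1.58 at scores of at least 7. Ino80KD over Brg1KD was 0.918 within batch 3 and went from 1.80 to 1.00 with gene bodies extended by 10 kb. Brg1KD over Control was 0 at scores of at least 7, where Control had 1 and 1 member loops. It was also 0 without Sall4, as it had to be, since Sall4 held every Brg1KD listing. For trophoblast genes, Ino80KD over Brg1KD went from 1.33 to 0.901 without Brg1KD replicate 1. The replicate block gave 0.573 for Brg1KD over Control, 1.03 for Ino80KD over Control and 1.79 for Ino80KD over Brg1KD, by a Mantel-Haenszel ratio added after seeing the data, and changed no direction. A mean of log2 ratios with the block could not be had for Brg1KD, which has a library at 0. For the same reason Ino80KD over Brg1KD had no value at scores of at least 7, without Sall4, without Brg1KD replicate 2 or within batch 1. In the authors' deposited table for Brg1KD, the median of -0.25 turned to 0.10 over entries of higher signal, where fewer entries remain. At an unadjusted p under 0.01 the count of member entries for Brg1KD went from 1 to 0, and at scores of at least 7 the count of loops in 4 libraries went from 1 to 0. The median for Ino80KD in the authors' deposited table kept its sign in all 7 alternatives (0.056 without Sall4, up to 0.23).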

Other observations

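All 20 listed member loops, at 6 genes, ran from the bait to an end at a higher coordinate, where 49.2% of all listings did. The 20 came from 7 baits and hold repeats, being 10 loops with both ends matched within 5 kb. They are thus not 20 separate cases, and the difference was not tested. None of the 20 ended on a fragment listed as a bait, where 3.98% of all listings did. Of the 13 member loops counted by identical ends 8 were in a single library (61.5%), beside 68.0% of all 49634.

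Members also had 5 loops to other chromosomes, 3 in Control and 2 in Brg1KD replicate 2. Control replicate 1 listed Zfp42 with chr15:93660001-93680000, a fragment holding Zfp42-ps1, a pseudogene copy of Zfp42, at a score of 11.4, and Esrrb with the bait of Vstm2l at 5.40. Whether the sequences of Zfp42 and its copy were told apart was not tested. In Control replicate 2 the bait of Klf2 was listed with chr5:126140001-126160000 at 17.4. Brg1KD replicate 2 joined Dppa4 to the bait of the histone gene H4c4 at 7.53 and Dppa2 to chr19:41460001-41480000, which holds the pseudogene Gm9788, at 10.7. Among the loops between chromosomes of its own list, the score exceeded 45.2% of the others for Zfp42, 7.02% for Esrrb, 64.9% for Klf2, 25.2% for Dppa4 and 44.3% for Dppa2. Prdm14 was met only as the other end of loops from the chromosome 2 bait left out of the counts, in both Brg1KD libraries and Ino80KD replicate 2, and the one in Brg1KD replicate 2 (chr1:13126424-13128283) is the fragment of bait length on an end of the gene. Over all lists, 2515 other ends off the 20 kb grid had that length, and 570 of them were listed as a bait nowhere.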
